A study of Mus musculus with 4 samples.

Results

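In RNA-seq of mouse prefrontal cortex (PFC), 10 immediate early genes were followed, namely the transcription factor genes Fos, Fosb, Fosl2, Junb, Egr1, Egr2, Egr4, Npas4 and Nr4a1, and Arc, which encodes a synaptic protein. They were taken by gene name, and all 10 were among the 23420 gene symbols counted and among the 16232 genes that passed the filter on low counts. Control samples 1 and 2 came from C57BL6/J mice injected in the PFC with GFP AAV9, an adeno-associated virus, and Ash1L shRNA samples 1 and 2 came from mice injected with an AAV9 that carried a short hairpin RNA against Ash1L, a histone methyltransferase gene. The hairpin was driven by the U6 promoter in a GFP-tagged virus, so it was not restricted to 1 cell type, and RNA was taken from bulk PFC punches with GFP fluorescence. The sources differ on several points. The paper describes the control virus as carrying a scrambled shRNA, injection at 5 weeks of age and 3 mice pooled for each sample, whereas the series text gives an age of 6 to 8 weeks with 3 Ash1L shRNA mice and 2 control mice. The seizure state of the mice and the time and handling at tissue collection are not given for any RNA-seq sample in the sources used here. The p-values below measure the spread between these samples only.

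Immediate early genes are transcribed within minutes of neuronal firing from factors that are already present in the cell, such as CREB and SRF, and need no new protein synthesis. FOS-family proteins pair with JUN-family proteins to form AP-1, EGR proteins are zinc-finger factors, NPAS4 is induced by calcium entry in neurons, NR4A1 is an orphan nuclear receptor, and ARC acts at synapses in the removal of AMPA receptors. Their transcripts are short-lived, so their levels in tissue follow recent activity. In cortex they are commonly used as markers of recently active neurons.

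Levels are given as TMM-normalized CPM, the counts scaled by library size, which are not adjusted for gene length. All 10 members were high in Ash1L shRNA sample 2 and none was high in Ash1L shRNA sample 1. Summed over the 10 members, the level was 639.6 CPM in control sample 1, 462 CPM in control sample 2, 335 CPM in Ash1L shRNA sample 1 and 3166 CPM in Ash1L shRNA sample 2. The samples of the same virus thus lay on opposite sides of the controls. In Ash1L shRNA sample 2, 9 of the 10 members were at least 2-fold above every other sample, which 2.36% of all tested genes were. Across the tested genes, 26.5% had both Ash1L shRNA samples above both controls, and no member did.

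The sequences just upstream of listed starts of these genes are shown because the members moved together. For Npas4, Egr2 and Nr4a1 the windows shown lie inside the annotated span of the gene, before an internal start. RefSeq (GRCm38.p6, the build of the counts) gave promoters for 8 members, all but Arc and Egr1, and the 250 bases before each listed start were searched on both strands. The letters TGACG, the half-site of the cAMP response element through which CREB acts, lay in a promoter of 7 of the 8 members, all but Fosl2. They lay in 17.8% of all 32851 promoters of this length and in 28.5% of the 11728 tested genes with an entry. Each line below gives 30 bases around a half-site, 5′ to 3′ on the strand of the gene, with the half-site or its reverse complement in capitals.
Npas4, chr19:4990129-4990158, minus strand: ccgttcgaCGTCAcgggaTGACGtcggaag
Fos, chr12:85473811-85473840, plus strand: cagttccgcccagTGACGtaggaagtccat
Fosb, chr7:19310089-19310118, minus strand: atggagttgcgggTGACGcaagcgcggggg
Junb, chr8:84978838-84978867, minus strand: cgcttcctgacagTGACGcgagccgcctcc
Egr2, chr10:67537801-67537830, plus strand: atatgggcagcgaCGTCAcgggtattgaag
Egr4, chr6:85513682-85513711, minus strand: gtttggtcatttaCGTCAcggcgccagggc
Nr4a1, chr15:101266793-101266822, plus strand: gcccctctccatgCGTCAcggagcgcttaa

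Whole upstream windows of 250 bases are shown for the 3 members with 1 listed start that hold more than 1 half-site and whose window overlaps no annotated exon, 1 each from the FOS, EGR and nuclear receptor families. Half-sites are in capitals on either strand.
Fos, chr12:85473640-85473889, plus strand, 2 half-sites: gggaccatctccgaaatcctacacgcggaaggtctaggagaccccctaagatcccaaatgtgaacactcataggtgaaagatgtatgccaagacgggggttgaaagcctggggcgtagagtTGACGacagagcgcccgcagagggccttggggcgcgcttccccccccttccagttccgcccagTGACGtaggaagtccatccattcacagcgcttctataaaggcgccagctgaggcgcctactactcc
Egr4, chr6:85513590-85513839, minus strand, 2 half-sites: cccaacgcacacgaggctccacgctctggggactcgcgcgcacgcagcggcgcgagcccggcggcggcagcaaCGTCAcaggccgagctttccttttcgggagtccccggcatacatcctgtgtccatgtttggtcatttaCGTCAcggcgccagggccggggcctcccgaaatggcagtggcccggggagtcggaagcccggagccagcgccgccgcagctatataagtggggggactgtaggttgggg
Nr4a1, chr15:101266596-101266845, plus strand, 4 half-sites: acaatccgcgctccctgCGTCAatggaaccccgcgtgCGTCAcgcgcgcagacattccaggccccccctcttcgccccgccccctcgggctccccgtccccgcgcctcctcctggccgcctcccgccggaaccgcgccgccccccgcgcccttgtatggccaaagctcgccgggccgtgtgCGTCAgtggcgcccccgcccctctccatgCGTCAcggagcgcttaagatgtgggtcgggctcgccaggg
The full element TGACGTCA was in none of the 8 members' windows and in 2.77% of the tested genes with an entry (1.55% of all promoters). The CArG box, the motif bound by SRF, was in 1 member, Egr2, and in 1.45% of these genes (1.47% of promoters). The AP-1 motif TGANTCA was in no member and in 5.84% of these genes (6.75% of promoters), and the EGR motif GCGNGGGCG was in 3 members (Fosb, Fosl2 and Nr4a1) and in 9.87% of these genes (4.7% of promoters). These matches describe letters only, and binding was not measured. Bases further upstream than 250, and the promoters of Arc and Egr1, were not searched.

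Among the AP-1 members, those of the FOS family had both the largest and the smallest gaps. Fos (chr12:85473890-85477273, mm10), the founding member of the family, stood at 39.3 CPM in control sample 1, 27.5 CPM in control sample 2, 27.9 CPM in Ash1L shRNA sample 1 and 629.9 CPM in Ash1L shRNA sample 2. Ash1L shRNA sample 1 lay inside the range of the controls, and Ash1L shRNA sample 2 was 18.9-fold above the control mean. Fosb (chr7:19302696-19310051), whose spliced product ΔFOSB is known to build up with repeated activity, measured 10.8, 7.10 and 8.91 CPM in control samples 1 and 2 and Ash1L shRNA sample 1, and 141.8 CPM in Ash1L shRNA sample 2. The last value was 15.8 times the control mean, while Ash1L shRNA sample 1 was at 0.993 of it. Counts per gene cannot separate the Fosb splice forms.

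Junb (chr8:84974484-84978718), a JUN-family partner of FOS, was at 54.7 and 43.3 CPM in the control samples, 36.5 CPM in Ash1L shRNA sample 1 and 271 CPM in Ash1L shRNA sample 2. Fosl2 (chr5:32135801-32157842), which encodes the FOS-related factor FRA2, was at 39.0 and 28.6 CPM in the control samples, 24.8 CPM in Ash1L shRNA sample 1 and 85.4 CPM in Ash1L shRNA sample 2. For both genes Ash1L shRNA sample 1 was the lowest of the 4 samples. Against the control mean, Ash1L shRNA sample 2 was 5.53-fold higher for Junb and 2.53-fold higher for Fosl2. Junb shares 173 of its 2301 exonic bases with Prdx2 on the opposite strand, and the strand setting of the counting is not given in the sources used here. Prdx2, a peroxiredoxin gene, was at 168 and 172 CPM in the controls and at 199 and 189 CPM in Ash1L shRNA samples 1 and 2.

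The EGR members were lowest in Ash1L shRNA sample 1 in every case. Egr1 (chr18:34859823-34864984), also known as Zif268, was at 120.7 and 87.0 CPM in the control samples, 53.8 CPM in Ash1L shRNA sample 1 and 205 CPM in Ash1L shRNA sample 2. Its 1.70-fold gap between Ash1L shRNA sample 2 and the highest other sample was the smallest of the 10 members and the only 1 under 2-fold. Egr2 (chr10:67535475-67542188), a factor also known from myelination, was at 10.8 and 11.5 CPM in the controls, 4.42 CPM in Ash1L shRNA sample 1 and 66.4 CPM in Ash1L shRNA sample 2. Its level in Ash1L shRNA sample 1 was 0.395 of the control mean, the lowest such ratio of the members, and in Ash1L shRNA sample 2 it was 5.94-fold above that mean. Egr4 (chr6:85511121-85513589) had the fewest counts, at 7.65 and 6.19 CPM in the controls, 4.13 CPM in Ash1L shRNA sample 1 and 40.2 CPM in Ash1L shRNA sample 2. For Egr4 the counting intervals set only Ash1L shRNA sample 2 far apart. The exact Poisson 95% intervals, which cover counting error only, ran from 6.28 to 9.24 CPM in control sample 1, from 5.39 to 7.07 CPM in control sample 2, from 3.40 to 4.96 CPM in Ash1L shRNA sample 1 and from 37.5 to 43.0 CPM in Ash1L shRNA sample 2. Those of the controls overlapped, and that of Ash1L shRNA sample 1 lay below both.

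Npas4 (chr19:4984355-4990316), the neuron-specific factor that regulates inhibitory synapses, showed the largest contrast. It was at 26.1 CPM in control sample 1, 13.3 CPM in control sample 2, 18.4 CPM in Ash1L shRNA sample 1 and 528.7 CPM in Ash1L shRNA sample 2. Ash1L shRNA sample 2 was 26.8-fold above the control mean and 20.2-fold above the highest other sample. Npas4 also differed most between the control samples, by 1.97-fold, with counting intervals of 23.5 to 28.9 CPM in control sample 1 and 12.1 to 14.5 CPM in control sample 2 that do not overlap. Arc (chr15:74669083-74672570) was the most abundant member, at 257 and 182 CPM in the controls, 125.6 CPM in Ash1L shRNA sample 1 and 952.9 CPM in Ash1L shRNA sample 2. Nr4a1 (chr15:101254269-101274795) was at 73.0 and 55.7 CPM in the controls, 30.1 CPM in Ash1L shRNA sample 1 and 243.9 CPM in Ash1L shRNA sample 2. Both genes were thus below the controls in Ash1L shRNA sample 1, at 0.572 of the control mean for Arc and 0.467 for Nr4a1, and above them in Ash1L shRNA sample 2, by 4.34-fold and 3.79-fold.

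**Figure D1:**
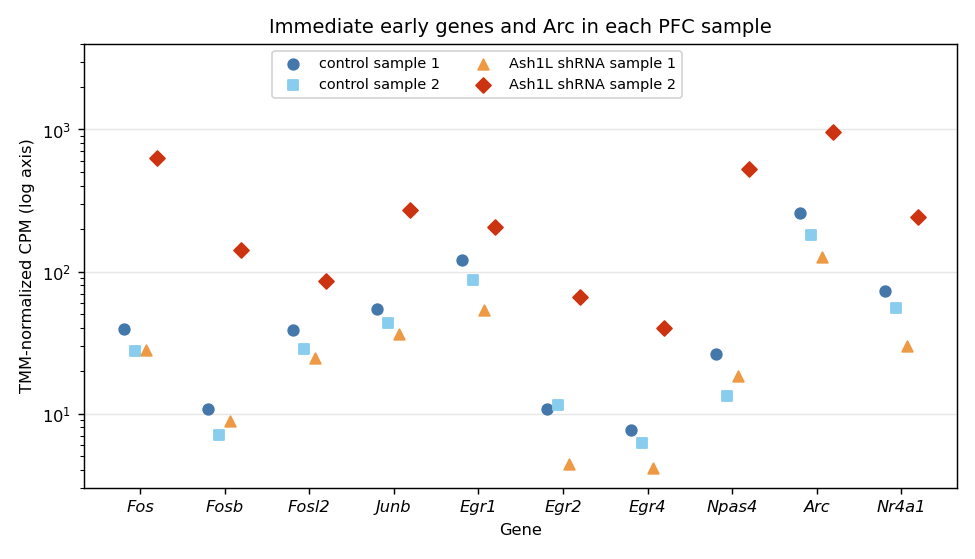
TMM-normalized CPM of the 10 members on a log axis, 1 point per sample, for control samples 1 and 2 and Ash1L shRNA samples 1 and 2. The points of Ash1L shRNA sample 2 lie above all others for every member, from 1.70-fold (Egr1) to 20.2-fold (Npas4) above the next sample, and those of Ash1L shRNA sample 1 lie among or below the controls.

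The control samples differed by less than the Ash1L shRNA samples did for every member. The level in control sample 1 divided by that in control sample 2 ran from 0.941 (Egr2) to 1.97 (Npas4), and control sample 1 was the higher for 9 of the 10 members. The ratio of Ash1L shRNA sample 2 to Ash1L shRNA sample 1 ran from 3.45 (Fosl2) to 28.7 (Npas4). On the log2 scale, as differences from the control mean with 0.1 CPM added, the median over the members was 0.23 in control sample 1, -0.23 in control sample 2, -0.58 in Ash1L shRNA sample 1 and 2.502 in Ash1L shRNA sample 2. The median over all tested genes was -0.00 in Ash1L shRNA sample 1 and 0.00 in Ash1L shRNA sample 2.

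The 10 members divided into those that Ash1L shRNA sample 1 held below both controls and those that it did not. Fosl2, Junb, Egr1, Egr2, Egr4, Arc and Nr4a1 were below both controls in Ash1L shRNA sample 1, and 37.5% of tested genes were. These same 7 genes were above both controls in Ash1L shRNA sample 2, and 6.57% of tested genes were both below the controls in the one and above them in the other. Fos, Fosb and Npas4 lay between the controls in Ash1L shRNA sample 1. They were also the 3 members furthest above the controls in Ash1L shRNA sample 2, with log2 differences of 4.26 for Fos, 3.999 for Fosb and 4.82 for Npas4.

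The comparison of the groups depended on the test. With all 4 samples, no member passed an unadjusted p under 0.05 with at least a 1.2-fold change by edgeR's quasi-likelihood test, in either direction. The study set these limits on DESeq2. Run on the same counts, DESeq2 called 3 members UP, namely Fos, Fosb and Npas4, with 7.55% of all genes UP. By edgeR, 8.61% of all tested genes were UP and 8.28% were DOWN, and 0.00616% passed a Benjamini-Hochberg adjusted p of 0.05. Npas4 had the largest group log2 fold change, 3.82 (standard error 1.80, edgeR adjusted p = 0.379). For Fos it was 3.31 (standard error 1.63, edgeR adjusted p = 0.394), and for Egr1, the smallest, 0.32 (standard error 0.67, edgeR adjusted p = 0.834). The other 7 members had group log2 fold changes between 0.71 (Fosl2) and 3.09 (Fosb). The median over the members was 1.65, beside -0.00 over all tested genes. For the genes that DESeq2 called, its adjusted p was 0.318 for Fos and Fosb and 0.266 for Npas4. The likelihood ratio test of edgeR called the same 3 UP, with 8.72% of all genes UP. An exact two-sided permutation test of the normalized levels gave p = 0.667 for these 3 and p = 1 for the others, and 2 samples against 2 cannot give less than 0.333.

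Leaving out Ash1L shRNA sample 2 changed the direction for most members, and leaving out Ash1L shRNA sample 1 changed it for none. Without Ash1L shRNA sample 1, all 10 members were UP by edgeR, beside 14.4% of the 16494 genes then tested, and all 10 also had an adjusted p under 0.05 by edgeR, beside 6.94% of genes that were higher at that limit. The log2 fold changes of that fit ran from 0.98 (Egr1, standard error 0.19, edgeR adjusted p = 0.0165) to 4.79 (Npas4, standard error 0.48, edgeR adjusted p = 0.0292), and the smallest edgeR adjusted p was 0.000117 for Egr2 at 2.56. This fit holds 1 Ash1L shRNA sample, which is assumed to vary like the controls, and it compares that library rather than the condition. Without Ash1L shRNA sample 2, Junb, Egr1, Egr2, Egr4, Arc and Nr4a1 were DOWN by edgeR at unadjusted p, beside 5.05% of the 16688 genes tested, and no member passed the adjusted limit. The lowest of these log2 fold changes were -1.34 for Egr2 and -1.09 for Nr4a1, of which the latter had the lower edgeR adjusted p, 0.0979.

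**Figure D2:**
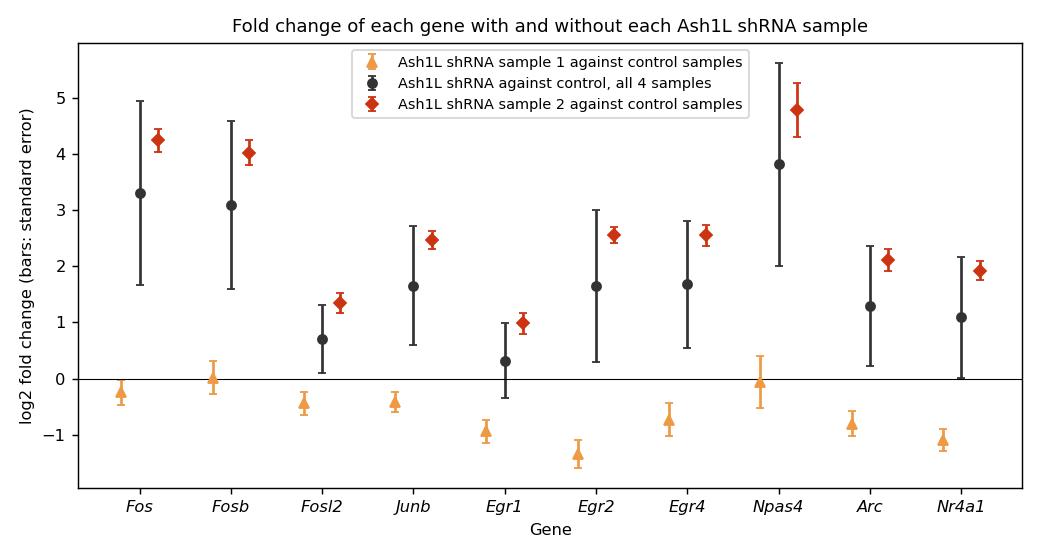
Log2 fold change of each member, Ash1L shRNA against control, by edgeR with all 4 samples, without Ash1L shRNA sample 1 and without Ash1L shRNA sample 2, with bars of 1 standard error. Estimates without sample 1 run from 0.98 to 4.79 and are all above 0, those without sample 2 run from -1.34 to 0.02, and the 4-sample estimates lie between them with the widest bars.

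The members were also compared with all other genes by the log2 difference between Ash1L shRNA sample 2 and Ash1L shRNA sample 1. Ranked by this difference, Npas4 was first of 16232 genes, Fos was 3rd, Fosb 4th and Egr2 5th. Of the 20 genes with the largest difference 8 were members, of the first 100, 9 were, and of the first 200, all 10 were, with Fosl2 the last at rank 109. The second gene was Cyr61, a matricellular gene that is itself rapidly induced. This ranking sets 1 library against another and carries no test.

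**Figure D3:**
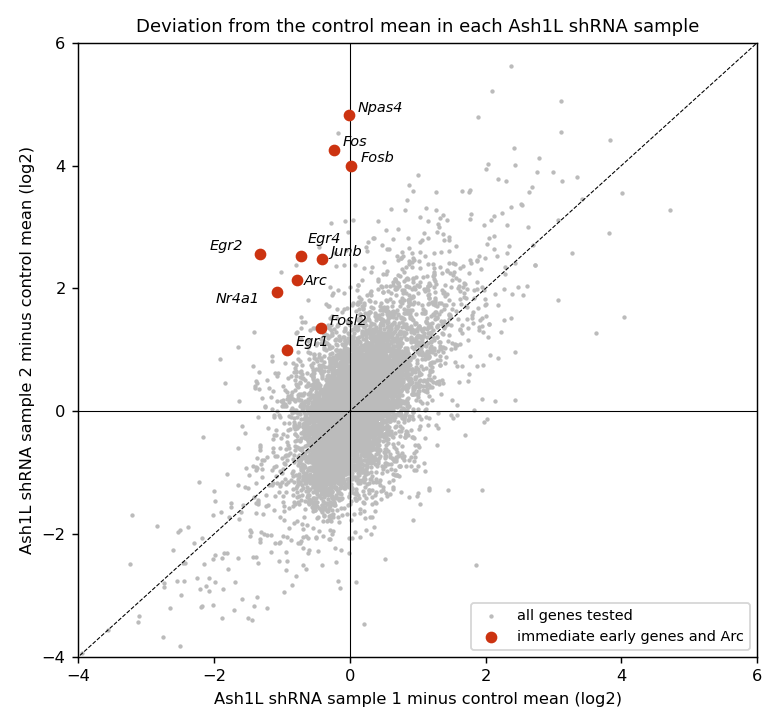
Log2 difference from the control mean in Ash1L shRNA sample 1 (x axis) against Ash1L shRNA sample 2 (y axis) for all tested genes, with the members named and 5 genes outside the axes. The members lie at the upper edge, between 1.00 (Egr1) and 4.82 (Npas4) in sample 2, and between -1.32 (Egr2) and 0.02 (Fosb) in sample 1.

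Levels can be compared between genes only per length, and CPM was divided by the kilobases of merged exons (GENCODE vM21). In the controls the mean was 71.9 CPM per kb for Arc, 23.2 for Egr1, 21.3 for Junb, 18.3 for Nr4a1, 14.2 for Fos, 4.76 for Npas4, 3.49 for Fosl2, 3.29 for Egr2, 3.22 for Egr4 and 1.44 for Fosb. The values of the 2 control samples did not overlap between the neighbours Arc and Egr1, Fos and Npas4, and Egr4 and Fosb, and overlapped between the other neighbours. In Ash1L shRNA sample 1 Arc was again first, at 41.1 CPM per kb, and Egr2 was last at 1.30. In Ash1L shRNA sample 2 the order was Arc at 312, Fos at 268, Npas4 at 128, Junb at 118, Nr4a1 at 69.5, Egr1 at 45.8, Fosb at 22.7, Egr2 at 19.5, Egr4 at 18.7 and Fosl2 at 8.83 CPM per kb. By control mean, Fos stood behind Egr1, Junb and Nr4a1 and in Ash1L shRNA sample 2 it was ahead of them, and Npas4 likewise passed all 3. None of the members apart from Junb shares exonic bases with another annotated gene.

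The genes most like the members were sought by the distance of their 4 log2 differences from the median profile of the members, among genes with a mean normalized count of at least 50. The nearest was Nr4a2, an orphan receptor of the same family as Nr4a1, at a distance of 0.302 and with 10.9, 6.67, 4.89 and 44.7 CPM in control samples 1 and 2 and Ash1L shRNA samples 1 and 2. It was followed by Ier2 (0.568), Klf4 (0.699), Dusp1 (0.710) and Sik1 (0.715). Ier2 is an immediate early gene, KLF4 is a zinc-finger factor, DUSP1 is a phosphatase that switches off MAP kinases and SIK1 is a kinase induced by cAMP. Dusp1 was at 24.1, 22.2, 24.4 and 120.7 CPM in the same order of samples. Nearest to Npas4 were Cyr61 (0.938), Ptgs2 (1.417), Gadd45g (1.649), Prrg4 (1.692) and Gem (1.751). Ptgs2, the inducible cyclooxygenase gene, was at 46.9, 27.4, 71.9 and 515 CPM. Cyr61 was at 5.10, 6.16, 4.97 and 131.5 CPM. These distances rest on 4 samples and are a description.

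Other genes of the response were read from 6 lists of 88 genes, of which 87 were tested. The lists were drawn up with earlier results of these data known. Over the 87 genes, 15 were UP and 5 were DOWN by edgeR, beside 8.61% UP and 8.28% DOWN among all tested genes. None of the 87 passed the adjusted limit. The count of UP genes was lower without control sample 2 and higher without Ash1L shRNA sample 1, as it was over all tested genes.

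Many of the other rapid response genes were high in Ash1L shRNA sample 2, as the members were. Of the 28, 17 (60.7%) were at least 2-fold above every other sample in Ash1L shRNA sample 2, beside 2.36% of all genes, and the median log2 difference from the controls was -0.04 in Ash1L shRNA sample 1 and 1.73 in Ash1L shRNA sample 2. In Ash1L shRNA sample 1, 11 of them (39.3%) were below both controls, a share near the 37.5% of all genes, and the 11 were above both in Ash1L shRNA sample 2, beside 6.57% of all genes with both. By edgeR 4 (14.3%) were UP, beside 8.61% of all tested genes, and none DOWN. The median log2 fold change was 1.09. The 4 were Ier3, Dusp5, Trib1 and Errfi1, which encode a stress-response protein, a nuclear ERK phosphatase, a pseudokinase and an inhibitor of the EGF receptor. Errfi1 was at 35.9 and 32.7 CPM in the controls and at 48.3 and 132 CPM in Ash1L shRNA samples 1 and 2 (log2 fold change 1.39, standard error 0.49, edgeR adjusted p = 0.276). Ier3 was at 8.71 and 7.53 CPM in the controls and at 13.9 and 27.6 CPM in Ash1L shRNA samples 1 and 2. The number UP rose without Ash1L shRNA sample 1 and fell without each other sample, as the number over all tested genes did. No call was left without control sample 2, and some genes were DOWN without Ash1L shRNA sample 2. DESeq2 called 8 UP and the likelihood ratio test 13, beside 7.55% and 8.72% of all genes.

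The remaining EGR and NR4A genes were in this list and were chosen for mention after their values were seen. Egr3 stood apart from the other EGR genes, at 25.4 and 21.1 CPM in the controls, 16.3 CPM in Ash1L shRNA sample 1 and 26.8 CPM in Ash1L shRNA sample 2. It was the lowest in Ash1L shRNA sample 1, as its 3 relatives were, but in Ash1L shRNA sample 2 it was close to control sample 1. Nr4a3 was at 14.7, 9.72, 7.52 and 33.1 CPM in the same order of samples.

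Of the other AP-1 and partner genes 7 of 8 were tested, 2 (28.6%) were UP, beside 8.61% of all tested genes, and none DOWN. Atf3, a stress-induced factor of the same superfamily, was at 1.13 and 2.42 CPM in the controls and at 11.2 and 22.0 CPM in Ash1L shRNA samples 1 and 2 (log2 fold change 3.13, standard error 0.47, edgeR adjusted p = 0.240). Unlike the members it was above both controls in both Ash1L shRNA samples. Maff, a small MAF factor, was at 1.77 CPM in each control sample and at 3.32 and 11.7 CPM in Ash1L shRNA samples 1 and 2, and was also UP. Jun was at 41.9, 38.5, 44.4 and 120 CPM and did not pass the test (log2 fold change 1.04, standard error 0.48, edgeR adjusted p = 0.344). Fosl1, the untested gene, had 3 and 2 counts in the controls, 9 counts in Ash1L shRNA sample 1 and 35 counts in Ash1L shRNA sample 2. More of the list were UP without Ash1L shRNA sample 1 and fewer without control sample 2, as over all tested genes.

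The later activity-regulated genes lay above the controls by median in both Ash1L shRNA samples. All 15 had positive log2 fold changes, with a median of 1.17. Of them 7 (46.7%) were UP, beside 8.61% of all tested genes, and none DOWN. The median log2 difference from the controls was 0.54 in Ash1L shRNA sample 1 and 1.58 in Ash1L shRNA sample 2. Bdnf, a neurotrophin gene, was at 66.0 and 43.0 CPM in the controls and at 125 and 217 CPM in Ash1L shRNA samples 1 and 2 (log2 fold change 1.65, standard error 0.32, edgeR adjusted p = 0.250). Scg2, which encodes a granin of dense-core vesicles, was at 318 and 215 CPM in the controls and at 589 and 986 CPM in Ash1L shRNA samples 1 and 2. Nptx2, a pentraxin that clusters AMPA receptors, was at 103 and 62.3 CPM in the controls and at 192 and 348 CPM in Ash1L shRNA samples 1 and 2. Both Ash1L shRNA samples were above both controls for 11 of the 15 (73.3%), beside 26.5% of tested genes. In Ash1L shRNA sample 2, 3 of the 15 (20%), namely Rgs2, Inhba and Ptgs2, were at least 2-fold above every other sample, beside 2.36% of all tested genes. The number UP rose without Ash1L shRNA sample 1 and fell without either control sample, as the number over all tested genes did. It did not fall without Ash1L shRNA sample 2. DESeq2 called 11 UP, beside 7.55% of all genes.

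**Figure D4:**
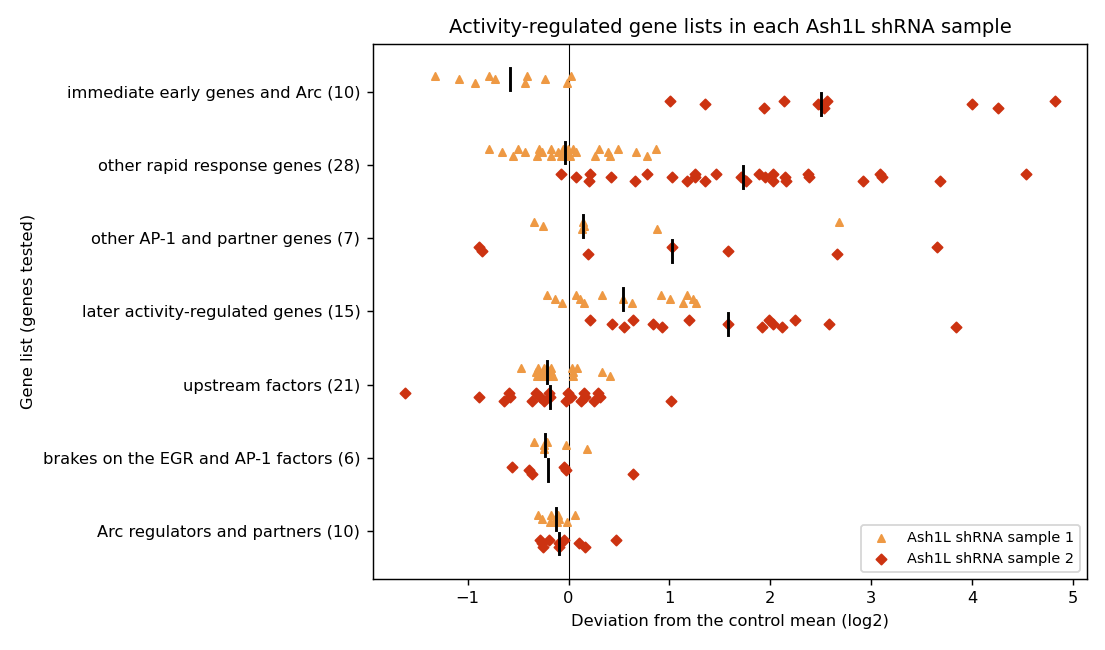
Log2 difference from the control mean, with 0.1 CPM added, for the genes of each list in Ash1L shRNA samples 1 and 2. The members have medians of -0.58 and 2.502 and the other rapid response genes of -0.04 and 1.73, the later activity-regulated genes have medians of 0.54 and 1.58, and the upstream factors, the brakes and the Arc partners have medians between -0.23 and -0.09 with single genes further away.

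The shares called among genes that act upstream of the members were near those of all genes. The 21 upstream factors are kinases and transcription regulators that act on immediate early genes, among them CREB, SRF and MEF2. Of the 21, 2 (9.52%) were UP and 2 (9.52%) DOWN, beside 8.61% and 8.28% of all tested genes. The median log2 fold change was -0.16. The median difference from the controls was -0.21 in Ash1L shRNA sample 1 and -0.19 in Ash1L shRNA sample 2. Crem, a CREB relative, was at 20.5 and 18.8 CPM in the controls and at 26.2 and 39.9 CPM in Ash1L shRNA samples 1 and 2 (log2 fold change 0.75, edgeR adjusted p = 0.260), and Mef2a was UP with a log2 fold change of 0.32. Camk4, a nuclear calcium-dependent kinase that phosphorylates CREB, was at 423 and 513 CPM in the controls and at 378 and 299 CPM in Ash1L shRNA samples 1 and 2 and was DOWN, as was Mkl2, an SRF coactivator. No gene of this list was called without control sample 2. Fewer were called without control sample 1 and more were DOWN without Ash1L shRNA sample 1, as over all tested genes. Those 2 fits each held calls in both directions. Creb1, named after its values were seen, was at 104 and 105 CPM in the controls and at 108 and 117 CPM in Ash1L shRNA samples 1 and 2.

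Of 6 brakes on the EGR and AP-1 factors, 2 (33.3%) were DOWN, beside 8.28% of all tested genes, and none UP. Jdp2, which represses AP-1, was at 41.0 and 37.5 CPM in the controls and at 30.9 and 26.5 CPM in Ash1L shRNA samples 1 and 2 (log2 fold change -0.45, edgeR adjusted p = 0.260), and Hdac4, a histone deacetylase that represses MEF2, was at 62.7, 61.1, 52.3 and 47.3 CPM. None was DOWN without Ash1L shRNA sample 2 or without control sample 1, and fewer were without control sample 2. More were DOWN without Ash1L shRNA sample 1, and the number DOWN over all tested genes moved in the same directions. Of 10 regulators and partners of ARC 1 (10%) was DOWN, a share near the 8.28% of all tested genes. This gene was Wasf1, an actin regulator, at 89.3, 91.9, 73.4 and 74.6 CPM. Wasf1 was DOWN neither without Ash1L shRNA sample 1 nor without either control sample.

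Other differences between the Ash1L shRNA samples stand beside the rise of the members. Ash1l itself was at 245 and 290 CPM in the controls, 216 CPM in Ash1L shRNA sample 1 and 138 CPM in Ash1L shRNA sample 2 (log2 fold change -0.60, standard error 0.22, edgeR adjusted p = 0.275). It was DOWN by edgeR (unadjusted p = 0.0362). Ash1l was below both controls in both Ash1L shRNA samples and lower in the one with high members. The 8 microglia markers summed to 627 and 647 CPM in the controls, 756 CPM in Ash1L shRNA sample 1 and 318 CPM in Ash1L shRNA sample 2. None of them was UP or DOWN, and none was at 0 in any sample. Astrocyte markers, of which 5 (62.5%) were DOWN, summed to 5456, 5773, 4423 and 3271 CPM in control samples 1 and 2 and Ash1L shRNA samples 1 and 2. The most abundant of them was Slc1a2, at 3159, 3467, 2757 and 2013 CPM. Gfap, at 319, 352, 349 and 322 CPM, and Aqp4, at 231, 200, 210 and 254 CPM, did not follow the sum. Excitatory neuron markers, of which 3 (37.5%) were DOWN, summed to 2852, 3330, 2633 and 2144 CPM. Of the 8, 7 had negative log2 fold changes. Slc17a6, the exception, was at 23.3, 15.8, 18.5 and 23.4 CPM, and Cux2 was near level at 76.4, 80.8, 76.2 and 76.1 CPM. Among all tested genes 8.28% were DOWN. Markers of striatal neurons summed to 204, 194, 231 and 320 CPM. Of the 7 tested, Drd2, Rgs9 and Pde10a (42.9%) were UP, beside 8.61% of all tested genes. Pan-neuronal markers, detected in every sample of this cortical tissue, summed to 8138, 8391, 7431 and 6278 CPM with 1 (12.5%) DOWN. Of these markers 5 had negative log2 fold changes. The other 3, Map2, Nefl and Stmn2, did not follow the sum and were highest in Ash1L shRNA sample 2. Oligodendrocyte markers summed to 2593, 2940, 2799 and 2459 CPM with 1 (12.5%) DOWN. Endothelial markers summed to 298, 264, 301 and 265 CPM with no call. In bulk tissue, fewer cells of a type and less RNA per cell cannot be told apart. The part of tissue composition and of the level of Ash1l in the levels of the members was not tested, and with 1 library at the high level they cannot be told apart.

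Total counts were 14251190 and 35764874 in control samples 1 and 2 and 27479339 and 20106708 in Ash1L shRNA samples 1 and 2. The chi-square per degree of freedom over genes was 14.8 between the controls and 42.3 between the Ash1L shRNA samples, so both pairs differed by more than counting error. The members were well covered in every sample, with at least 108 counts each, from Egr4 in control sample 1, up to 19750 counts for Arc in Ash1L shRNA sample 2.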

How the data were processed

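RNA-seq of PFC was analysed for 2 control and 2 Ash1L shRNA samples, grouped by their labels. The deposited files hold raw read counts, which the authors made with STAR (mm10) and featureCounts and did not normalize. The labels name Cutadapt and TopHat2 instead. Strand and multiple-mapping settings are not given in the sources used here.

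Genes were filtered with filterByExpr, scaled by TMM and tested with the quasi-likelihood test of edgeR 4.0.16 (R 4.3.3, robust, Benjamini-Hochberg adjustment over 16232 genes). UP and DOWN mean an unadjusted p under 0.05 and at least a 1.2-fold change. Standard errors were derived from the log2 fold change and its F statistic. Tests were checked on simulated counts. Alternatives were DESeq2 1.42.0, the likelihood ratio test, other scalings and filters, a 1.5-fold limit, a replicate block and each sample left out.

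The members and the gene lists were chosen with earlier results of these data known. Named genes are the members, Ash1l, up to 4 genes of each list by unadjusted p, and the 5 genes nearest to the members' median and to Npas4. Others are ends of a range, members of a small count, overlapping genes, or named after their values were seen. Gene models came from GENCODE vM21 and promoters from RefSeq. Permutation tests were exact and two-sided. The call of 1 gene among the cell type markers is not reported here.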

Additional observations from a re-analysis of the deposited data

How the results depend on the processing

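With all 4 samples, every member kept a positive log2 fold change under the 9 alternatives, from 0.04–0.37 for Egr1 to 2.45–3.88 for Npas4. DESeq2 and the likelihood ratio test each called 3 members UP in place of 0. Leaving out each sample in turn gave 0 to 10 members UP, 0 to 6 DOWN and 0 to 10 past the adjusted limit, and a median log2 fold change of the members from -0.58 to 2.51, beside 1.65. On leaving out each sample in turn, the log2 fold change ran from -0.25 to 4.25 for Fos, -0.44 to 1.345 for Fosl2, -0.42 to 2.47 for Junb, -0.94 to 0.98 for Egr1, -1.34 to 2.56 for Egr2, -0.73 to 2.56 for Egr4, -0.061 to 4.79 for Npas4, -0.80 to 2.11 for Arc and -1.09 to 1.92 for Nr4a1, and the lowest, from the fit without Ash1L shRNA sample 2, was below 0 for these 9 and 0.018 for Fosb. Over all genes, 1397 were UP and 1344 DOWN, with 423 to 2368 UP and 306 to 2718 DOWN on leaving out a sample, and 765 UP and 491 DOWN at the 1.5-fold limit. Of the genes of the other lists, 15 were UP and 5 DOWN. DESeq2 gave 24 UP and the likelihood ratio test 27 UP and 3 DOWN, library size alone gave 3 DOWN and the 1.5-fold limit 0 DOWN, and leaving out a sample gave 5 to 46 UP and 1 to 9 DOWN. The cause of these shifts was not tested beyond the samples removed.

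No source used here ties same-numbered samples to each other and their deviations correlated at -0.11, so the numbers were not taken as pairs. With the replicate block 1052 genes were UP and 1020 DOWN, with 1 DOWN among the other lists and none of the members called. The crossed pairs, added after seeing the data, gave 1541 UP and 1736 DOWN, with 9 DOWN among the other lists. Exact permutation of 2 against 2 samples cannot pass 0.05.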

Other observations

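Among the 20 genes with the largest difference between the Ash1L shRNA samples, Btg2, an antiproliferative gene that is induced early, was at 34.8 and 31.9 CPM in the controls, 31.7 CPM in Ash1L shRNA sample 1 and 284 CPM in Ash1L shRNA sample 2. Gadd45g, a stress-response gene near Npas4 in profile, was at 7.51, 8.41, 14.6 and 103 CPM in the same order of samples. Gem and Prrg4 of the same group were UP, with Gem at 2.55 and 2.91 CPM in the controls and at 5.26 and 33.9 CPM in Ash1L shRNA samples 1 and 2.

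Srf, which encodes a factor upstream of many members, was at 54.5 and 52.2 CPM in the controls, 38.4 CPM in Ash1L shRNA sample 1 and 53.3 CPM in Ash1L shRNA sample 2. Like 7 of the members it was lowest in Ash1L shRNA sample 1, but Ash1L shRNA sample 2 lay between the controls. No explanation of these values was tested.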
